A study of Homo sapiens with 18 samples.

Results

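The genes described here are the DNA replication machinery: 54 genes that act at replication origins, at the fork or in the supply of nucleotides. They were taken by symbol from the deposited table, where all 54 were found among 55765 gene symbols, and all 54 were among the 16154 genes with a mean normalised count of at least 10, the limit for testing. They divide by role into 9 genes of origin loading (ORC1 to ORC6, CDC6, CDT1, GMNN), 6 subunits of the MCM2-7 helicase, 8 genes of origin firing (MCM10, CDC45, GINS1 to GINS4, CDC7, DBF4), 9 polymerase and primase subunits, 8 genes of the sliding clamp, its loader and ligation (PCNA, RFC1 to RFC5, FEN1, LIG1), 7 genes that bind single-stranded DNA or steady the fork (RPA1 to RPA3, TIPIN, TIMELESS, CLSPN, WDHD1), 2 chromatin assembly subunits (CHAF1A, CHAF1B) and 5 genes of nucleotide supply (RRM1, RRM2, TYMS, TK1, DUT).

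RNA came from G401, a human malignant rhabdoid tumour cell line. The control line, called WT here, had been edited at AAVS1, a site used as a harmless target, and the clones E1 and F2 had been edited at both alleles of RB1 with CRISPR/Cas9. Each was given 10 µM tazemetostat, which inhibits the histone methyltransferase EZH2, or an equal volume of the solvent DMSO for 11 days, with 3 libraries in each of the 6 groups. The titles call these biological replicates. E1 and F2 are single clones, so what belongs to RB1 loss and what belongs to a clone cannot be told apart within either. The WT groups serve as the reference for both clones, so comparisons with E1 and with F2 share the same WT libraries.

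Replication starts at origins bound by the origin recognition complex, where CDC6 and CDT1 load the MCM2-7 helicase during G1. The kinase CDC7 with its partner DBF4, together with CDC45 and the GINS complex, turns the loaded helicase into a moving fork in S phase. Many of these genes are textbook targets of the E2F factors, which the retinoblastoma protein RB1 binds and holds inactive in cells that are not dividing; growing cells carry more of their transcripts than resting cells. In bulk RNA, fewer cells in S phase and less transcript per cell cannot be told apart.

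The libraries held 25709489 to 39314860 reads, and the lowest count of any of the 54 genes in any library was 121 reads. RB1 transcript was 2694 ± 132 (SD, n = 3) in WT under DMSO, and its highest value in a clone library, 1045, lay below its lowest in a WT library, 2300.4. SMARCB1, whose loss defines rhabdoid tumours, had 0 reads in every library. Markers of other cell types were low except CDH1: of 8 in the table, HBB was at 0 and PTPRC and CD3E never had more than 2 reads. CDH1, an epithelial marker, ranged from 8.04 to 422, whereas the highest value of any other marker was 37.3, for VWF. The sum of the 8 was 248 to 300 in WT under DMSO and 329 to 459 under tazemetostat; for E1 it was 25.0 to 40.9 and 144 to 192, and for F2 137 to 190 and 294 to 329. It thus moved with treatment in all 3 lines and its part in the results was not tested. The 3 E1 DMSO libraries differed most among themselves. E1 DMSO replicate 3 stood low for CDT1, with 703 against 1215 and 1283, for TK1, with 1249 against 1783 and 2444, and likewise for MCM5, POLD1 and POLD2. More than 10% of the exonic bases overlap another gene in 10 of the 54 genes, whose reads may therefore be shared or left uncounted. Pseudogene copies named after the gene are annotated for 10 of the 54, among them DUT with 8 and PCNA, RRM2 and RPA2 with 3 each. Their effect on the counts was not tested. On the same strand, overlap above 10% held for POLA2 (35.1%), TIPIN (21.0%), RRM2 (20.2%) and PRIM1 (16.2%). On the other strand it held for TYMS (46.6%), MCM2 (23.6%), GINS4 (23.6%), DUT (14.5%), GINS3 (10.9%) and RFC5 (10.6%), and whether the counting used strand is not given in the sources used here.

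The sequences just before the starts of some of these genes are shown first, because RB1 is known to act on promoters through E2F factors and the lines differ in RB1. RefSeq promoters on GRCh38.p14, running 250 bases before to 50 after the start, were matched by symbol for 48 of the 54 genes; MCM4, MCM5, GINS4, POLD3, RPA2 and RPA3 were not matched. The 160 bases before the start are printed 5′ to 3′ for the 5 matched genes with the largest falls in WT (PRIM1, GINS2, ORC1, MCM10, MCM6) and the 2 with the smallest (ORC3, ORC5), a choice made on their measured changes. Capitals mark the E2F-like letters searched on either strand, which were TTCCCGC as the usual form, together with the forms spelled TTGGCGC, then also TTCGCGC, and finally those reading TTGCCGC.
PRIM1: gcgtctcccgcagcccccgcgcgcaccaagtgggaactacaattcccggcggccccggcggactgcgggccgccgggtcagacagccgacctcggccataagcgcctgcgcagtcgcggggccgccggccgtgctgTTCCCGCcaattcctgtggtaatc
GINS2: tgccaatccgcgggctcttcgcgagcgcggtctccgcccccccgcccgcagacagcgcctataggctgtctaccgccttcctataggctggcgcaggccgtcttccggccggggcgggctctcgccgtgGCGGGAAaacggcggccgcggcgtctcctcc
ORC1: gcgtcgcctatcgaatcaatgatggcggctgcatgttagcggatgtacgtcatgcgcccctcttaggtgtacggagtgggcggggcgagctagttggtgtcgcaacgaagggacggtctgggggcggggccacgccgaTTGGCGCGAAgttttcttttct
MCM10: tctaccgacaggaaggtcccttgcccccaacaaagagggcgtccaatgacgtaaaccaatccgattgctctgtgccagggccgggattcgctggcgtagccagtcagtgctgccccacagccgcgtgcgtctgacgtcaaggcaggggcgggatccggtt
MCM6: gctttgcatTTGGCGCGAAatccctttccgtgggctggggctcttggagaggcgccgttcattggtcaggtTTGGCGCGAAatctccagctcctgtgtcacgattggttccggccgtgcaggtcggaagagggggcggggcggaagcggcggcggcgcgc
ORC3: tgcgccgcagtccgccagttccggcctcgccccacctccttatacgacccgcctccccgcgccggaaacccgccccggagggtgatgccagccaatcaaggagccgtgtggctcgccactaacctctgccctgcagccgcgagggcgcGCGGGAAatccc
ORC5: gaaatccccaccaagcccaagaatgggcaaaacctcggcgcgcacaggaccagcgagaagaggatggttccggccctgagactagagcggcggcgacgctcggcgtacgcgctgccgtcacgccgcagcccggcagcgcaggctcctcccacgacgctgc

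These lie at chr12:56752324-56752483 on the minus strand for PRIM1, chr16:85688955-85689114 on the minus strand for GINS2, chr1:52404424-52404583 on the minus strand for ORC1, chr10:13161398-13161557 on the plus strand for MCM10, chr2:135876444-135876603 on the minus strand for MCM6, chr6:87589975-87590134 on the plus strand for ORC3 and chr7:104208014-104208173 on the minus strand for ORC5. In PRIM1 the letters begin 24 bases before the start and run into a CCAAT box, the letters CCAAT on either strand. GINS2 holds them 31 bases before the start. In ORC1 and at both places in MCM6, TTGGCGC overlaps TTCGCGC read on the other strand, so the joined letters TTGGCGCGAA stand 22 bases before the start of ORC1 and 151 and 89 bases before that of MCM6. ORC3 also holds a match, 12 bases before its start, and MCM10 and ORC5 hold none. Over the whole window, 32 of the 48 promoters held E2F-like letters, against 13.1% of all 27305 promoters in the table. They stood in 27 of the 33 matched genes that fell in WT and in 5 of the 15 that did not pass. CCAAT was in 26 of the 48 (54.2%) against 35.7% of all promoters, and E2F-like letters overlapped a CCAAT box in 5 of the 48 against 0.575% of all. The cell cycle homology letters TTTGAA or TTCGAA, on either strand, were in 3 of the 48 against 16.6% of all promoters. The 27305 promoters were not limited to the genes tested here and were not matched for base composition. A match of letters is a description and not a measured binding site, and its part in the changes was not tested.

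In WT cells, 36 of the 54 genes fell under tazemetostat and none rose. A fall or rise here means a limma adjusted p under 0.05 with a log2 change of at least 1, measured as log2(value + 1). Over all genes tested, 6.77% fell and 14.5% rose by the same rule. At an unadjusted limma p under 0.05, 0 of the 54 were higher, against 36.2% of all genes tested. The median change of the 54 genes was -1.22, beside 0.03 over all genes tested. Each gene kept between 21.4% (PRIM1) and 99.2% (ORC3) of its DMSO level, with a median of 43.0%. Without a limit on the fold, 50 of the 54 genes were lower, against 29.4% of all genes tested, and the 4 others were ORC3, ORC5, RPA2 and POLD2. For 51 of the 54, all 3 treated WT libraries lay below all 3 WT DMSO libraries, which held for 32.9% of all genes tested. For 45, all 3 treated WT libraries lay below every one of the other 15 libraries, against 12.1% of all genes tested.

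**Figure D1:**
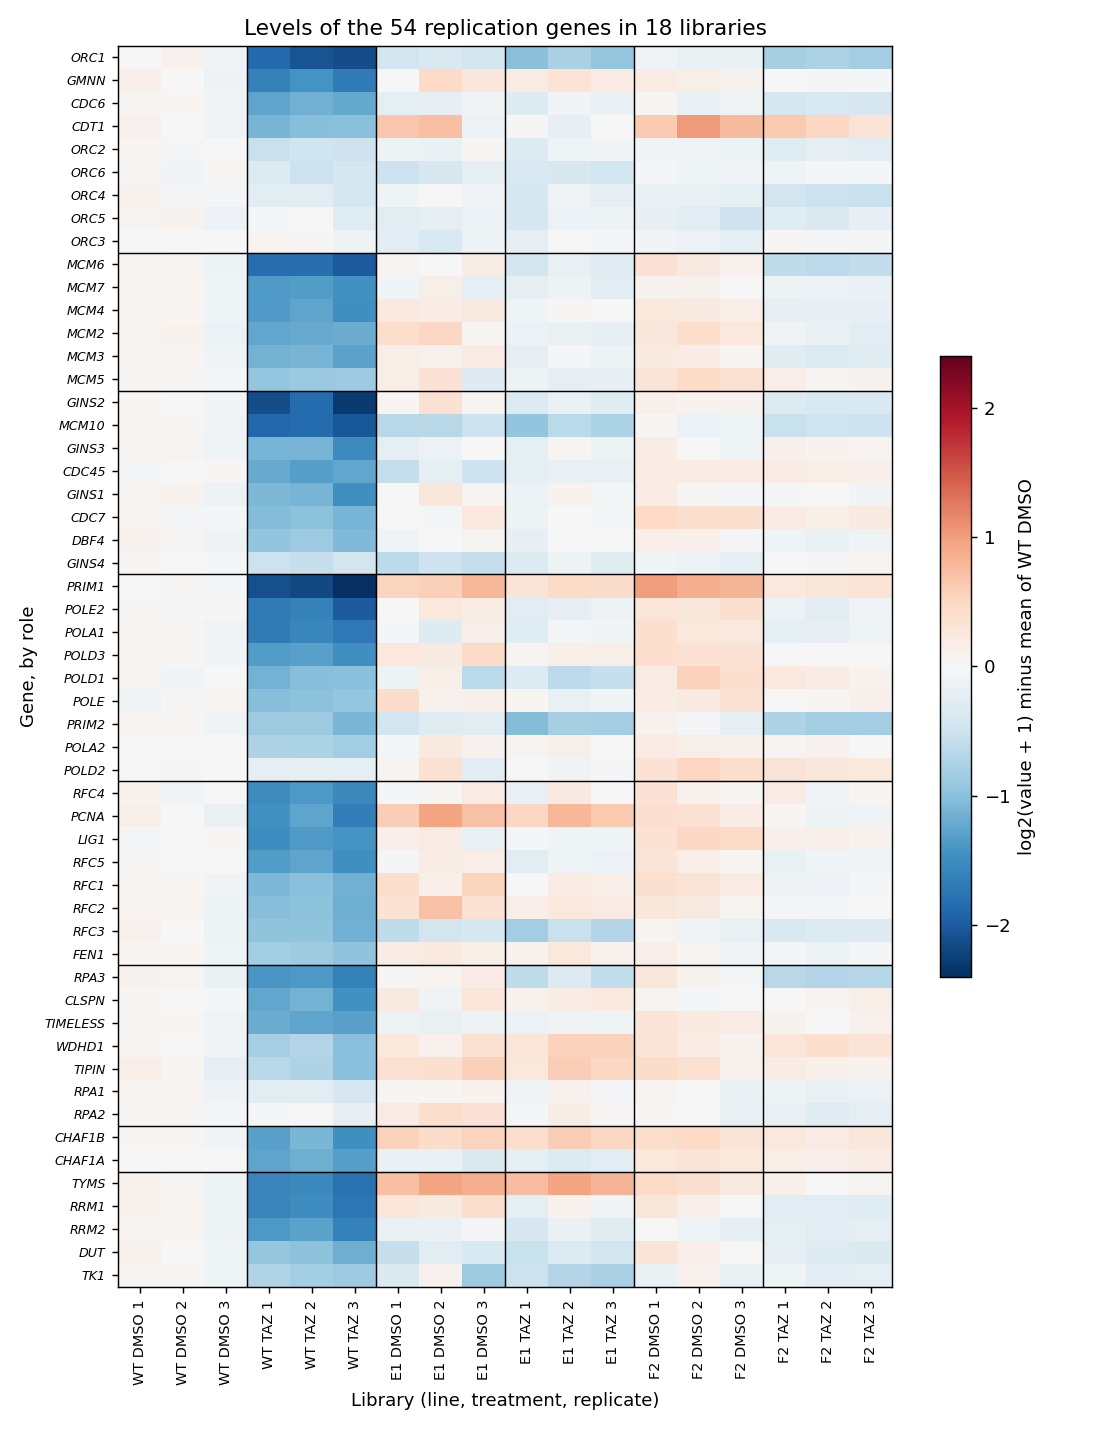
Levels of the 54 replication genes (rows, grouped by role) in the 18 libraries (columns), coloured by log2(value + 1) minus the mean of the 3 WT DMSO libraries. The 3 WT tazemetostat columns are blue over most rows, while the clone columns are paler, and the ORC3, ORC5, RPA2 and POLD2 rows are pale throughout the WT columns.

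The limit on fold passed through a crowded range. Just inside it were RFC3 (-1.03), DUT (-1.03) and CDT1 (-1.04), and just outside POLE (-0.98), DBF4 (-0.96) and PRIM2 (-0.95). With libraries scaled to the same total instead, 41 genes fell, the added ones being MCM5, DBF4, PRIM2, POLE and FEN1. The share of all genes tested that fell under that scaling is not given here. That scaling moved the median change over all genes from 0.03 to -0.12 and the share of rises among all calls in WT from 68.2% to 57.9%.

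Among the origin loading genes, 4 of 9 fell in WT (ORC1, CDC6, CDT1 and GMNN), and the median change was -0.50. ORC1, the ORC subunit whose level cycles in many human cells, had normalised counts of 1557, 1670.0 and 1473 under DMSO and 428, 373 and 358 under tazemetostat. Its log2 change was -2.02 ± 0.08 (SE; limma adjusted p = 4.6e-14), and all 3 treated libraries lay far below the lowest control. GMNN encodes geminin, the inhibitor of CDT1 that blocks relicensing. It was counted at 1439, 1328 and 1209 under DMSO and 431, 490.1 and 411 under tazemetostat, a change of -1.58 ± 0.10. The loaders CDC6 and CDT1 changed by -1.21 ± 0.07 and -1.04 ± 0.16. The other ORC subunits did not pass: ORC2 changed by -0.50, ORC6 by -0.42, ORC4 by -0.32 and ORC5 by -0.11 ± 0.10. ORC3 had 2716, 2688 and 2745 under DMSO and 2838, 2754 and 2490.1 under tazemetostat, so its groups overlapped, and its change was -0.01 ± 0.07 (limma adjusted p = 0.88).

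Of the MCM2-7 helicase subunits, which act as a ring of 6 different proteins, 5 of 6 fell in WT. MCM6 went furthest, with 7784, 7661 and 6865 under DMSO and 2092, 2122 and 1864 under tazemetostat and a log2 change of -1.88 ± 0.08 (limma adjusted p = 2.1e-13). MCM7, MCM4, MCM2 and MCM3 changed by -1.38, -1.36, -1.22 and -1.18. MCM5 had 4371, 4401 and 4154 under DMSO and 2269.5, 2329.8 and 2359.5 under tazemetostat; its groups did not overlap, but its change of -0.89 ± 0.11 stayed short of the limit. Per kilobase of exon, MCM3 had the highest value of the subunits and MCM5 the lowest in all 6 groups. Their ratio was 4.63 in WT under DMSO and 3.80 under tazemetostat. In E1 it was 4.81 and 4.78, and F2 had ratios of 3.92 and 3.49. These ratios depend on the exon lengths used, with all annotated exons of a gene merged: 7.338 kb for MCM5 and 3.65 kb for MCM3. The length of the transcripts present in these cells was not measured, so the ratios are not relative amounts of transcript.

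Origin firing genes fell in 6 of 8 cases, with a median of -1.24. GINS2, a subunit of the complex that joins CDC45 and MCM2-7 in the active helicase, was counted at 1629, 1599 and 1519.8 under DMSO and 362, 439 and 320.2 under tazemetostat. It changed by -2.09 ± 0.10 (limma adjusted p = 1.0e-12). Its partners in the same complex did not follow to one extent: GINS1 and GINS3 changed by -1.23 and -1.25, and GINS4 by only -0.50 ± 0.07, from 1605, 1570.1 and 1551 to 1107, 1077 and 1164. MCM10, which helps activate the helicase, went from 2140.0, 2106 and 1957 to 558, 573 and 501, a change of -1.93 ± 0.08. CDC45 and the kinase CDC7 fell by 1.25 and 1.05, and the kinase partner DBF4 changed by -0.96, short of the limit.

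Of the polymerase and primase subunits, 5 of 9 fell in WT. PRIM1, the catalytic primase subunit that makes the RNA primer, had the largest fall of the 54 genes. Its counts were 795, 808 and 764 under DMSO and 182, 175 and 149 under tazemetostat, and its log2 change was -2.22 ± 0.09 (limma adjusted p = 7.4e-14). The primase partner PRIM2 changed by -0.95 ± 0.09, with 5054, 4919.6 and 4462 under DMSO and 2628, 2632 and 2239 under tazemetostat. POLA1, the catalytic subunit of polymerase alpha, and POLE2, a subunit of the leading strand polymerase epsilon, both fell: POLA1 changed by -1.67 and POLA2 by -0.78, POLE2 by -1.77 and POLE by -0.98. The differences between partners were not tested. In polymerase delta, POLD3 and POLD1 fell (-1.37 and -1.05), and POLD2 changed by -0.22 ± 0.10 (limma adjusted p = 0.066). PRIM1 and POLA2 are among the genes whose exons overlap another gene on the same strand.

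Of the clamp, loader and ligation genes, 7 of 8 fell in WT. PCNA, the clamp that tethers polymerases to DNA, had 7660.2, 7022 and 6239 under DMSO and 2524, 2878 and 2203 under tazemetostat and changed by -1.46 ± 0.11 (limma adjusted p = 1.1e-09). The 5 clamp loader subunits ran from -1.48 for RFC4 to -1.03 for RFC3. LIG1, the ligase that seals Okazaki fragments, fell by 1.42, and the flap nuclease FEN1 changed by -0.88 ± 0.07, short of the limit.

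Of the 3 subunits of the single-strand binding complex RPA, only RPA3 fell in WT. RPA3, its smallest subunit, had 2585, 2549 and 2159 under DMSO and 921, 929.7 and 787 under tazemetostat, a change of -1.47 ± 0.10. RPA2 had 4100.0, 4069.5 and 3865 under DMSO and 3877, 3986 and 3512 under tazemetostat, groups that overlap, and a change of -0.08 ± 0.07 (limma adjusted p = 0.35), while RPA1 changed by -0.31. Among fork-stabilising genes, CLSPN (claspin, which relays the checkpoint signal) and TIMELESS fell by 1.28 and 1.25. TIPIN, the partner of TIMELESS, and WDHD1, which links the helicase to polymerase alpha, changed by -0.80 and -0.84 and did not reach the limit. Both chromatin assembly subunits fell, CHAF1A by 1.25 and CHAF1B by 1.29.

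Nucleotide supply fell in 4 of 5 genes. TYMS, thymidylate synthase, had 8060.3, 7751 and 6907 under DMSO and 2515, 2584 and 2192 under tazemetostat, a change of -1.64 ± 0.09 (limma adjusted p = 5.6e-12). The ribonucleotide reductase subunits RRM1 and RRM2 fell by 1.60 and 1.43, and DUT, which keeps uracil out of DNA, fell by 1.03. The salvage kinase TK1 changed by -0.80 ± 0.16 and did not reach the limit. TYMS, DUT and RRM2 are among the genes whose exons overlap another gene.

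**Figure D2:**
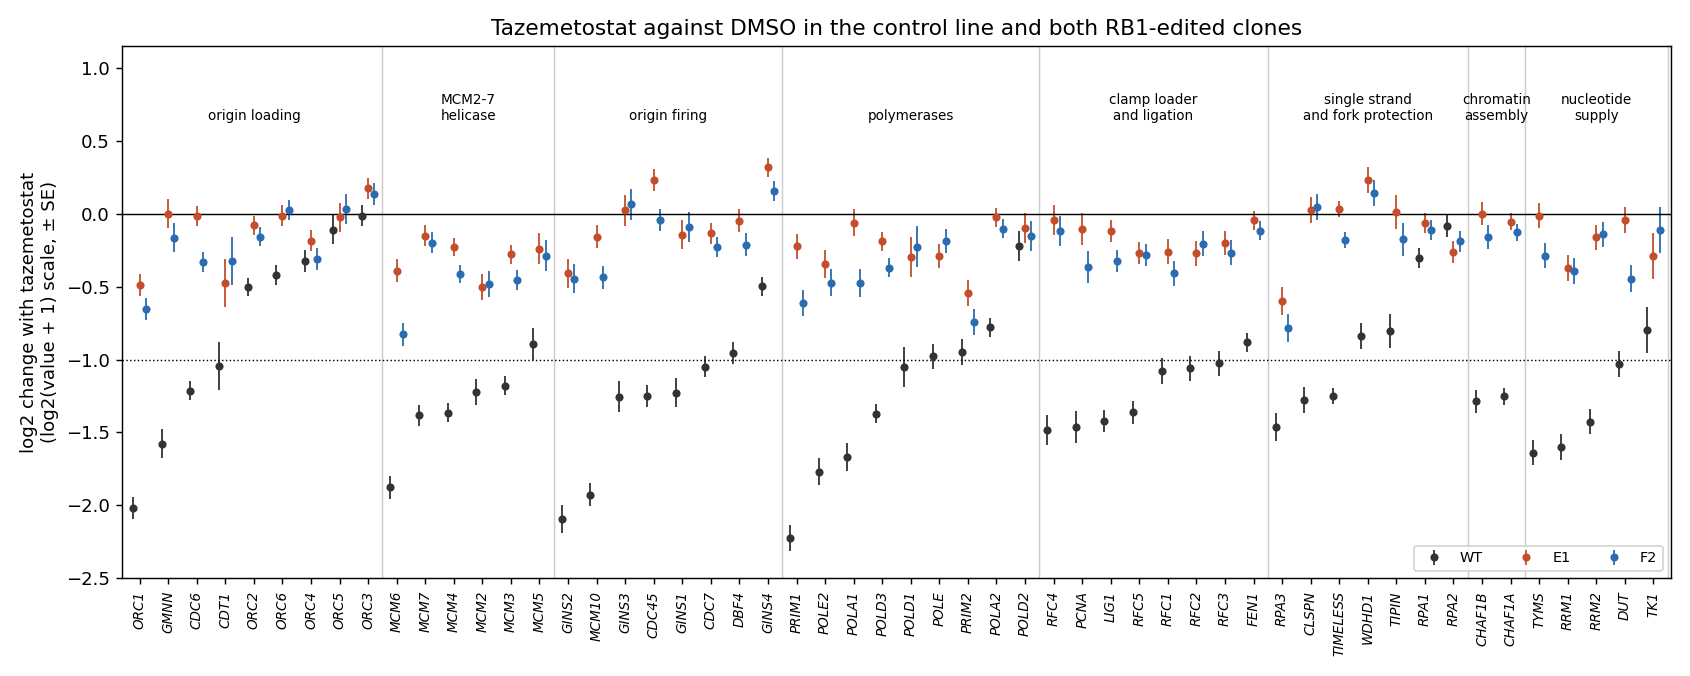
The log2 change with tazemetostat (± SE, 3 libraries against 3) of each of the 54 genes in WT (black), E1 (orange) and F2 (blue), grouped by role; the dotted line marks the limit of -1. WT points reach -2.22 for PRIM1, whereas no E1 point lies below -0.60 and no F2 point below -0.83.

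In the RB1-edited clones, none of the 54 genes passed the limit of fold and adjusted p in either direction under tazemetostat. Over all genes tested, 3.78% fell and 11.3% rose in E1, and 3.71% fell and 13.3% rose in F2. edgeR and DESeq2 on the recovered reads also called 0 of the 54 in either clone. The unadjusted limma p was under 0.05 for 22 genes lower and 4 higher in E1, against 22.6% and 29.9% of all genes tested. In F2 it was for 33 lower and 1 higher, against 25.9% and 31.3%. The median change was -0.14 in E1 and -0.22 in F2, beside 0.02 over all genes in each. The genes kept 66.2% (RPA3) to 124.9% (GINS4) of their DMSO level in E1 and 56.3% (MCM6) to 111.3% (GINS4) in F2.

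With no limit on fold, smaller falls passed in the clones. In E1, 18 of the 54 were lower, by 0.19 to 0.60 on the log2 scale, against 19.7% of all genes tested. In F2, 30 were lower, by 0.16 to 0.83, against 23.2%. Of these, 15 genes were lower in both clones: GINS2, MCM2, MCM3, MCM4, MCM6, ORC1, POLD3, POLE2, PRIM1, PRIM2, RFC1, RFC5, RPA2, RPA3 and RRM1. The share of all genes tested that was lower in both clones is not given here. Another 3 were higher in E1, against 27.1% of all genes tested: GINS4 (0.32), CDC45 (0.23) and WDHD1 (0.23).

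RPA3 had the largest change in E1, with 2463, 2527 and 2765 under DMSO and 1591, 1924 and 1619 under tazemetostat, a log2 change of -0.60 ± 0.10 (limma adjusted p = 4.0e-05). F2 held 2928, 2563 and 2335 under DMSO and 1535, 1485 and 1515 under tazemetostat, a change of -0.78 ± 0.10. In both clones its treated libraries lay below every DMSO library. MCM6 had the largest change in F2, with 9469, 8583 and 7965 under DMSO and 4864, 4815 and 4955 under tazemetostat, a log2 change of -0.83 ± 0.08 (limma adjusted p = 3.9e-08). E1 held 7787, 7511 and 8403 under DMSO and 5479, 6544 and 6072 under tazemetostat, a change of -0.39 ± 0.08. PRIM2 had 3499.6, 3909 and 3984 under DMSO and 2349, 2756 and 2709 under tazemetostat in E1 and 5141, 4622 and 4151 under DMSO and 2883, 2706 and 2688 under tazemetostat in F2. Its changes there, -0.55 ± 0.09 and -0.74 ± 0.09, stood beside -0.95 ± 0.09 in WT.

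The 3 genes with the largest WT falls, PRIM1, GINS2 and ORC1, and also TYMS and PCNA, showed smaller changes in the clones. PRIM1 had 1145, 1170.0 and 1363 under DMSO and 972, 1097 and 1075 under tazemetostat in E1 and 1591, 1446 and 1387 under DMSO and 935, 969 and 984 under tazemetostat in F2. Even its lowest treated clone library exceeded its highest WT DMSO library. GINS2 had 1628, 2044 and 1652 under DMSO and 1267, 1422 and 1301 under tazemetostat in E1 and 1718, 1677 and 1671 under DMSO and 1264, 1226 and 1229 under tazemetostat in F2, where treated libraries lay below those under DMSO but far above the treated WT libraries. ORC1 had 1156, 1217 and 1153 under DMSO and 783, 910.1 and 826 under tazemetostat in E1 and 1478, 1376 and 1386 under DMSO and 899, 925 and 874 under tazemetostat in F2, again lower in each treated library than in any DMSO library of the clone. TYMS had 12393, 14573 and 13914 under DMSO and 12550.5, 14629 and 13336 under tazemetostat in E1, groups that overlap, and 10388, 9902 and 8751 under DMSO and 8193, 7633 and 7922 under tazemetostat in F2. PCNA had 10420.2, 13417 and 11363 under DMSO and 9817, 12054 and 10737 under tazemetostat in E1, which also overlap, and 9146, 8974 and 7823 under DMSO and 7146, 6399.9 and 6543 under tazemetostat in F2.

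**Figure D3:**
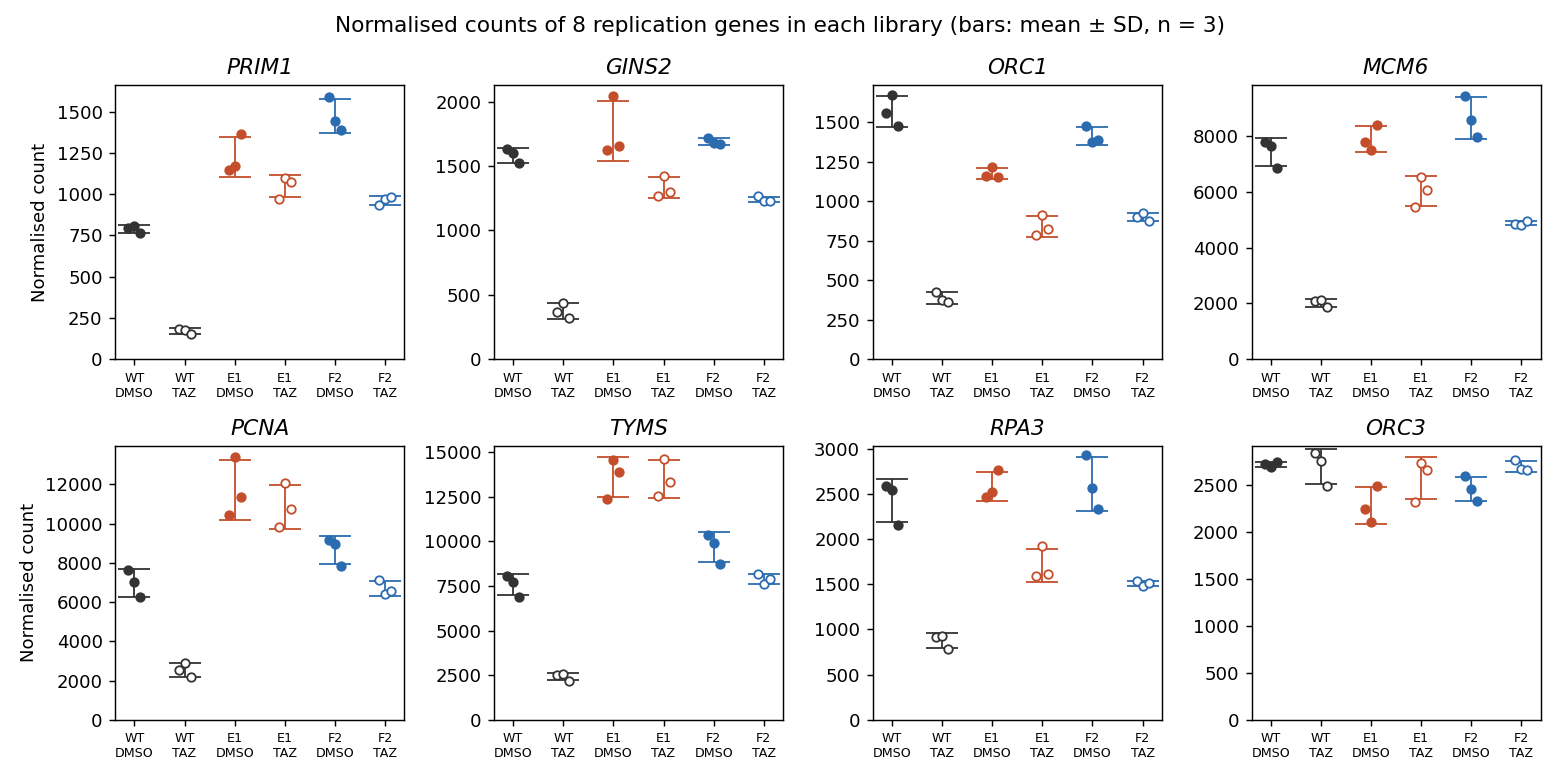
Normalised counts of PRIM1, GINS2, ORC1, MCM6, PCNA, TYMS, RPA3 and ORC3 in each library by line and treatment, with the mean and SD (n = 3). For all but ORC3, the 3 treated WT libraries are the lowest of the 18, and ORC3 stays between 2104 and 2838 in all of them.

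Whether the response to tazemetostat differed by line was tested as the change in a clone minus the change in WT. All 54 changes in WT were below 0, so a higher response here means a smaller fall, or a rise, in the clone. In E1, 27 of the 54 genes had a response higher than in WT by a log2 difference of at least 1, against 4.79% of all genes tested. The number for F2 was 24, against 4.82%. Both comparisons use the same WT libraries. CDC6, MCM4 and WDHD1 passed in E1, at 1.20, 1.13 and 1.07, and stood short of the limit in F2, at 0.88, 0.95 and 0.98. POLD3 passed in F2 right at the limit, at 1.00. None of the 54 had a lower response in either clone by limma, edgeR or DESeq2. At an unadjusted limma p under 0.05, 0 were lower in either, against 22.7% of all genes tested for E1 and 18.3% for F2. Without the limit on fold, 46 genes in E1 and 47 in F2 had a higher response, against 17.2% and 13.7% of all genes tested.

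The response difference was largest for PRIM1, at 2.00 ± 0.12 in E1 (limma adjusted p = 1.7e-09) and 1.61 ± 0.12 in F2 (limma adjusted p = 3.4e-08), and for GINS2 in F2, at 1.65 ± 0.14. Other large differences in E1 and F2 were those of MCM10 with 1.77 and 1.49, ORC1 with 1.53 and 1.37, TYMS with 1.63 and 1.35, and GMNN with 1.58 and 1.41. By role, the genes that passed in E1 and in F2 numbered 3 and 2 of 9 in origin loading, 3 and 2 of 6 in the helicase, and 5 and 5 of 8 in origin firing. They numbered 4 and 4 of 9 among polymerases, 4 and 4 of 8 for clamp and ligation, and 3 and 2 of 7 at the fork. Both chromatin assembly genes and 3 of 5 nucleotide supply genes passed in each clone. PRIM2 did not pass, with 0.40 ± 0.12 in E1 and 0.20 ± 0.12 in F2 (95% interval -0.06 to 0.46). RPA2 was the only gene with a difference below 0 in both, -0.18 (95% interval -0.40 to 0.04) and -0.11 (-0.33 to 0.12).

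**Figure D4:**
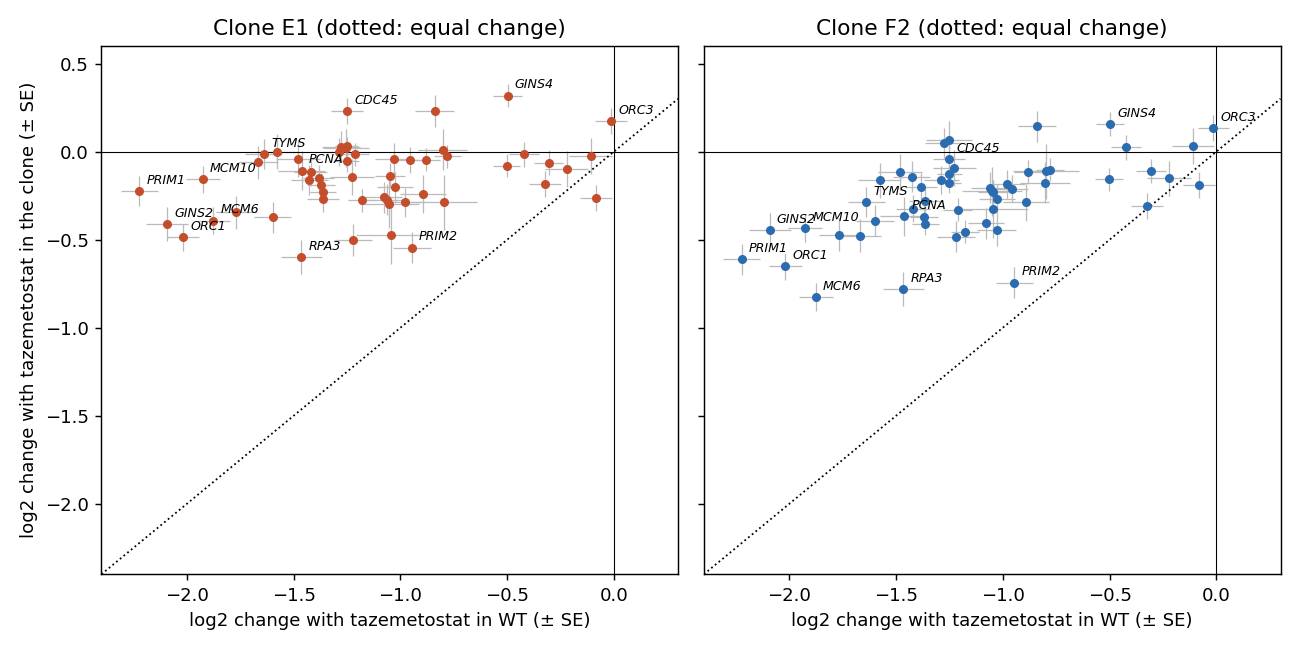
The log2 change with tazemetostat in E1 (left) and F2 (right) against that in WT for the 54 genes, with SE bars; the dotted line marks an equal change. PRIM1, GINS2 and ORC1 lie far above the line, at WT changes of -2.22, -2.09 and -2.02, while PRIM2 and ORC3 lie nearer to it; both panels share the same WT values.

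Without the drug, none of the 54 passed the limit in E1 or in F2 against WT under DMSO, where 5.04% and 2.98% of all genes tested did. edgeR and DESeq2 also called 0. The unadjusted limma p was under 0.05 for 18 genes higher and 13 lower in E1, against 16.2% and 17.7% of all genes tested. For F2 the numbers were 26 higher and 3 lower, against 14.1% and 18.5%. Without the limit on fold, 12 genes were higher and 10 lower in E1, against 11.4% and 11.7% of all genes tested. In F2, 17 were higher and 1 lower, against 8.10% and 12.1%. Paired by replicate number in a fit of only the WT and F2 DMSO libraries, 26 were higher and 2 lower. In that fit without the replicate block, 16 were higher and 1 lower. Shares over all genes tested are not given for these fits, so the counts cannot be set against them. The median difference was 0.07 in E1 and 0.15 in F2, beside -0.01 over all genes in each.

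PRIM1 was higher in both clones under DMSO, by 0.63 ± 0.09 in E1 (limma adjusted p = 2.5e-05) and 0.90 ± 0.09 in F2 (limma adjusted p = 5.9e-07), and its lowest clone library, 1145, lay above its highest in WT, 808. TYMS and PCNA were higher in E1, by 0.85 and 0.75, and TYMS in F2 by 0.35. CDT1 in F2 was higher by 0.80 ± 0.16, with 1198, 1568 and 1306 against 829.8, 767 and 725. Other genes went the other way in E1, without the limit on fold: 3 of origin loading and 3 of origin firing. So did 1 gene each among polymerases, clamp and ligation, chromatin assembly and nucleotide supply. In origin firing, MCM10 had 1296, 1301 and 1441 against 2140.0, 2106 and 1957 in WT, a difference of -0.62 ± 0.08. GINS4 differed by -0.56 and CDC45 by -0.43. In F2 the lone lower gene was ORC5, by -0.31 ± 0.10 (limma adjusted p = 0.036); in the fit of only these 2 groups it was ORC4 without the block and ORC4 and ORC5 with it.

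Under tazemetostat, 32 of the 54 genes were higher in E1 than in WT, and 32 were higher in F2, with a log2 difference of at least 1. Over all genes tested, 5.40% and 7.31% were. None of the 54 was lower by that limit, and the unadjusted limma p was under 0.05 for 0 lower in E1 and 1 lower in F2, against 29.7% and 30.4% of all genes tested. The median difference was 1.09 in E1 and 1.17 in F2. PRIM1 differed most, by 2.63 ± 0.09 in E1 and 2.51 ± 0.09 in F2. TYMS differed by 2.47 and 1.71, and PCNA by 2.10 and 1.41. Summed over the 54 genes, the normalised count was 180967 ± 8874 (SD, n = 3) in WT under DMSO and 85703 ± 4436 under tazemetostat, or 47.4% of it. The sum went from 199320.2 ± 4962 to 176432 ± 9198 (88.5%) in E1 and from 202478 ± 9566 to 165542 ± 1904 (81.8%) in F2.

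Between the 2 clones, none of the 54 genes differed by as much as the limit between the response of E1 and that of F2, against 5.81% of all genes tested. edgeR and DESeq2 called 0 as well, and the unadjusted limma p was under 0.05 for 9 genes, all with a higher response in E1, against 12.5% of all genes tested. Without the limit on fold, 5 genes passed, against 14.8%: MCM6 (0.43 ± 0.11, limma adjusted p = 0.012), POLA1 (0.42), DUT (0.40), PRIM1 (0.39) and CDC6 (0.31). In each of the 5 the change was nearer 0 in E1 than in F2. The 95% intervals of all 54 differences lay between -0.64 and 0.70, so a difference between clones as large as the limit lies outside each of them.

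Of a list of 40 further genes of the pathway, 14 fell in WT and none rose, with a median of -0.89, where 6.77% of all genes tested fell and 14.5% rose. At an unadjusted limma p under 0.05, 3 of the 40 were higher in WT, against 36.2% of all genes tested. The highest log2 change of the 40 in WT was 0.82. TICRR, which prepares origins for firing, went from 1205, 1306 and 1372 to 354, 340.4 and 409, a change of -1.82 ± 0.08. That was the largest change of the 40, and the smallest was -0.02 ± 0.10 for RRM2B, a ribonucleotide reductase subunit used outside S phase. None of the 40 passed in E1 or F2, where the unadjusted limma p was under 0.05 for 16 lower and 3 higher in E1 and for 21 lower and 1 higher in F2. Over all genes tested that p was reached by 22.6% lower and 29.9% higher in E1, and 25.9% lower and 31.3% higher in F2. The response was higher than in WT for 14 of the 40 in E1 and 9 in F2, against 4.79% and 4.82% of all genes tested. Genes that mark dividing cells moved too. MKI67 had 13650.4, 16489 and 16217 in WT under DMSO and 5768, 6023 and 5598 under tazemetostat, a change of -1.41 ± 0.12, beside 0.19 ± 0.12 in E1 and 0.21 ± 0.12 in F2. The mitotic cyclin CCNB1 changed by -1.04, -0.09 and -0.11, and the drug's target EZH2 by -1.50, -0.08 and -0.27. Their part in the replication gene changes was not tested.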

How the data were processed

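Poly(A) RNA of 18 G401 libraries was sequenced as 50-base read pairs from a stranded kit, per the labels' protocols. Reads were handled with Trim Galore 0.4.4, STAR 2.6.0a, HTSeq and DESeq2 on build hg19, per the submitters' processing notes; the annotation release and the strand setting of the counting are not given in the sources used here. The values the authors deposited are a signal, gene counts divided by 1 size factor per library. Multiplied by that factor, 100% of values in each library were whole within 1e-06, so reads were recovered, at 25709489 to 39314860 per library, which leaves counting error small for these genes. No column lacked a sample.

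Groups came from the sample titles. Genes with a mean of at least 10 were kept (16154), and log2(value + 1) was fitted on 6 group means with limma 3.58.1 (trended variance, R 4.3.3). P-values were adjusted by Benjamini-Hochberg over all genes, with a call at 0.05 and a log2 change of at least 1. Same-numbered WT DMSO and F2 DMSO libraries deviated together from their group means (correlations 0.18, 0.11 and 0.38). Their numbers were therefore taken as pairs in an alternative fit. WT tazemetostat and F2 DMSO libraries also deviated together (0.16, 0.17 and 0.37), but these groups are not compared directly here. For no other pair of groups were all correlations above 0.1. edgeR 4.0.16 and DESeq2 1.42.0 on recovered reads were alternatives; edgeR called 1133 genes lower and 2333 higher in WT. The scripts were tested on simulated data. By rule, the text names in each role the genes with the largest and smallest change in WT, those called in a clone, those whose response differs between clones, the MCM2-7 subunits and those nearest the limit; other members were named after their values were seen. Of the 40 further genes, those with the largest and smallest change are named. The members and lists were chosen with earlier results of these data known. Exon lengths came from GENCODE release 29 and promoters from RefSeq on GRCh38.p14, both matched by symbol, with the first listed start of each gene, so no coordinate of the hg19 counts was used.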

Additional observations from a re-analysis of the deposited data

Results flagged for a closer look

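The response to tazemetostat differed between lines by the test of the difference itself, taken as the log2 change in a clone minus that in WT. For E1, 27 of the 54 genes passed with a higher response than in WT, and among the genes with a difference tested by name the differences were 2.00 for PRIM1, 1.68 for GINS2, 1.63 for TYMS, 1.53 for ORC1, 1.48 for MCM6, 1.44 for RFC4, 1.29 for CHAF1B, 1.23 for MCM7, 1.20 for CHAF1A and 1.13 for MCM4. For F2, 24 passed, and the differences chosen in the same way were 1.65 for GINS2, 1.61 for PRIM1, 1.37 for ORC1, 1.36 for RFC4, 1.35 for TYMS, 1.18 for MCM7, 1.13 for CHAF1B, 1.12 for CHAF1A and 1.05 for MCM6. Both sets of differences use the same WT libraries.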

How the results depend on the processing

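The counts of genes past the limit kept within 1.5 times their main value under edgeR, DESeq2, TMM scaling, scaling to the same total, pseudocounts of 0.5 and 5, a minimum mean of 50, no filter, and fits on only the groups compared. Dropping the limit on fold was the exception. Without it, 18 genes were lower with tazemetostat in E1 and 30 in F2, where 0 passed with it. It also gave 22 genes that differed between E1 and WT under DMSO, 18 between F2 and WT, 46 with a higher response in E1, 47 in F2, and 5 that differed between the responses of E1 and F2. Chosen after seeing the data, the same test without E1 DMSO replicate 1, 2 or 3 gave 16, 17 or 21 genes lower in E1 and 21, 25 or 27 that differed from WT under DMSO. For these fits without 1 library the shares over all genes tested are not given, so the counts cannot be set against them.

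Leaving out each library in turn gave 34 to 38 genes lower in WT, 31 to 35 higher in E1 than WT under tazemetostat and 32 to 33 in F2, 25 to 28 with a higher response in E1 and 21 to 26 in F2, and 0 throughout for the other counts. Of 4698 values of single genes under the alternatives, 4598 stayed on the same side of the threshold, 82 came to pass it, 18 no longer did and 0 reversed. With a replicate block, the counts past the limit were equal to those without it: 36 lower in WT, 32 and 32 higher than WT under tazemetostat, 27 and 24 with a higher response, and 0 for the rest. Chosen after seeing the data, the replicate block with no fold limit gave 18 genes lower in E1 and 30 in F2, 23 that differed between E1 and WT under DMSO and 19 between F2 and WT, 49 higher in F2 than WT under tazemetostat, 48 and 47 with a higher response in E1 and F2, and 3 that differed between those responses. Fitted on only the WT and F2 DMSO libraries with no fold limit, 28 genes differed with the replicate block and 17 with no replicate block. Shares over all genes tested are not given for any of these fits with no fold limit, so the counts cannot be set against them. For the other comparisons the numbers were not taken as pairs: over all 45 pairs of same-numbered libraries the correlations ran from -0.30 to 0.38, and 8 of 18 libraries correlated best with their own number. Depth limited no gene, as the lowest count was 121 reads. With 3 libraries a group, and with E1 and F2 each a single clone, intervals cover the spread between these cultures only.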
